A study of Arabidopsis thaliana with 9 samples.

Results

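Of 4499 long intergenic non-coding RNAs (lincRNAs) measured in inflorescence, leaf and root of Arabidopsis thaliana, 92 (2.04%) formed the set of inflorescence-preferential lincRNAs described here. A lincRNA entered the set when its probe was well above background on all 3 inflorescence arrays, when its inflorescence mean was at least 1 log2 unit above both the leaf mean and the root mean, and when its lowest inflorescence value exceeded the highest of the other 6 values. The authors' table of log2 signals supplied these values, and each lincRNA was read from its brightest probe by the mean of the 9 arrays. The organ difference itself is therefore a description of how the set was chosen and carries no test. The whole array held 5077 genes, among them 302 annotated non-coding loci, 177 microRNA precursors and 94 protein-coding genes.

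Long intergenic non-coding RNAs are transcripts that arise between annotated genes and hold no long reading frame. In plants, many are known to be present at low levels and in few organs or conditions, and for most no function is known. An inflorescence holds organs and cell types that leaves and roots lack, such as petals, anthers with developing pollen, and carpels with ovules, beside stem tissue and meristems.

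Each organ was represented by 3 biological replicates of wild-type Col-0, with 1 Cy3-labelled array per replicate. Inflorescences carried open flowers and buds with a few very young siliques, and were taken at 4 weeks from plants on half-strength MS medium or in a greenhouse. Leaves and roots were taken at 30 days from plants in hydroponic MGRL medium. The inflorescence therefore differed from the other organs in age and culture as well, and these differences cannot be told apart from that of the organ. No mutation, transgene or treatment was given for any group. Replicates 1 and 2 of every organ were on slide 1 and replicate 3 on slide 2. Between 24.1% and 39.9% of probes were well above background per array, except on leaf replicate 2, where 10.7% were. None of the 34 flower, pollen, leaf and root marker genes looked for was on this array, so the organ labels were not checked against markers. Because whole organs were measured, fewer cells of a type and less RNA per cell cannot be told apart. With 3 arrays per organ, precision is set by their number.

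Signals below are log2 processed signals relative to each array's 75th percentile over 1345 probes well above background on all arrays, so that 0 is that percentile and lower signals are negative. On this scale, 75 of the 92 met all the conditions again. Levels of different lincRNAs come from different probes and are not compared with each other. On the authors' scale, the inflorescence mean exceeded the higher of the leaf and root means by 1.06 to 10.84 log2 units, with a median of 2.24. The difference was at least 2 in 52 lincRNAs, at least 4 in 22 and between 1 and 2 in 40. Just inside the limit of 1 were AT5TU025540 (1.06), AT4TU035810 (1.19) and AT1TU057350 (1.20), and just outside were AT1TU075480 (0.98), AT1TU096400 (0.97) and AT1TU067690 (0.95). A further 15 lincRNAs passed the limit but overlapped with leaf or root arrays, and 33 were separated from them by less than 1.

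**Figure D1:**
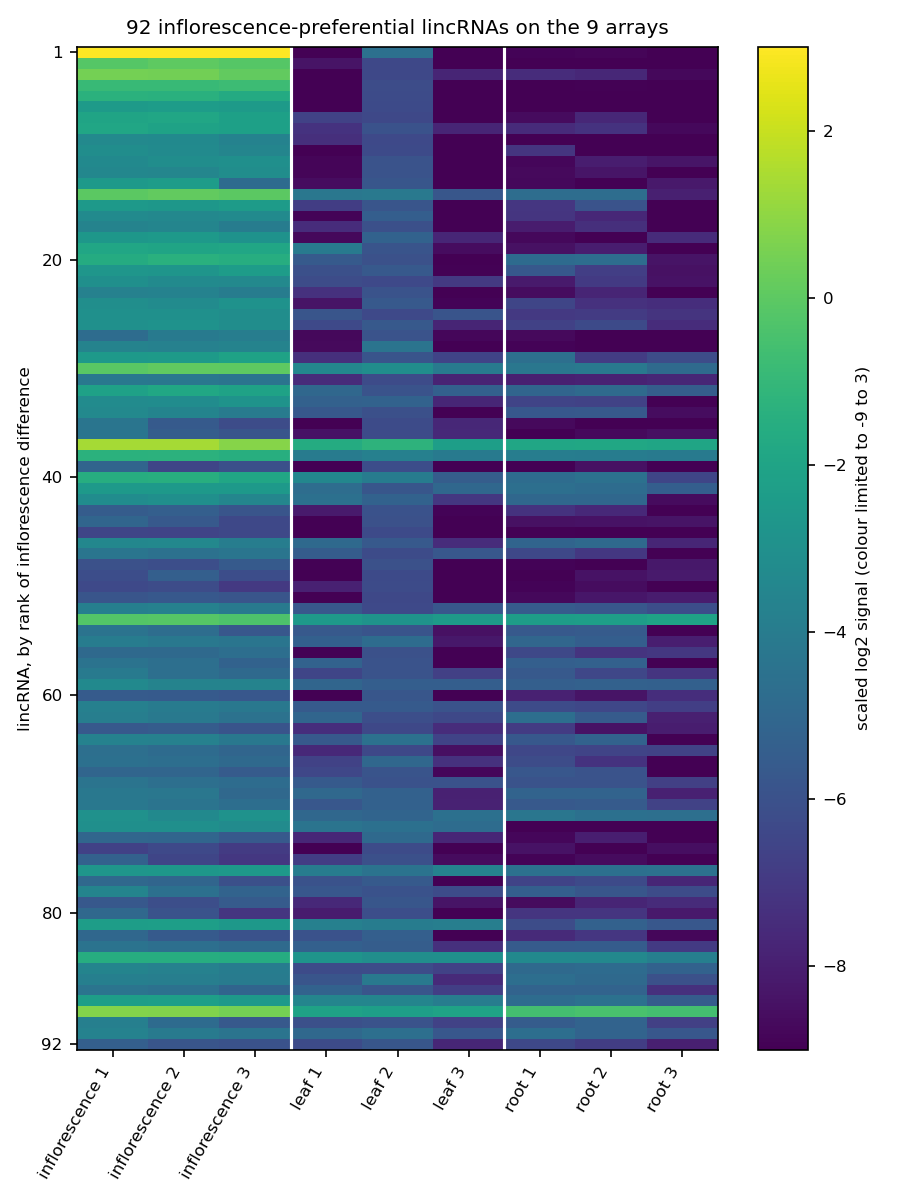
Heat map of the scaled log2 signal (colour, limited to -9 to 3) of the 92 lincRNAs (rows, ordered by the inflorescence difference on the authors' scale) on the 9 arrays (columns, by organ and replicate). The inflorescence columns are brighter than the other columns in nearly every row, as the choice requires, and the leaf replicate 2 column is brighter at its dim end than the other leaf columns.

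On the scaled signals, the largest difference belonged to AT2TU004830, on chromosome 2. Its signals were 3.24, 3.36 and 3.25 on the inflorescence arrays, -8.92, -4.58 and -9.05 on the leaf arrays, and -8.88, -8.84 and -9.47 on the root arrays. It was well above background on every inflorescence array and on no leaf or root array, so its difference has only a lower bound. The bound sets the inflorescence mean against the lowest signal well above background on each leaf or root array, or against the probe's own signal where that was higher. By this measure AT2TU004830 was at least 683-fold higher in inflorescence than in leaf and at least 1494-fold higher than in root. Leaf replicate 2 had a high detection limit, -4.05 against -6.87 and -7.48 on the other leaf arrays, and without it the bound over leaf was at least 1407-fold.

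AT5TU080700 and AT5TU018610, both on chromosome 5, followed. Their order, and that of the lincRNAs below, rests in part on signals that were not well above background and is no rank of measured size. The signals of AT5TU080700 were 0.48, 0.45 and 0.12 in inflorescence, -9.07, -6.39 and -7.75 in leaf, and -7.49, -7.66 and -8.74 in root. Those of AT5TU018610 were -0.15, 0.02 and -0.18 in inflorescence, -8.36, -6.39 and -9.73 in leaf, and -9.17, -9.57 and -9.80 in root. Both were well above background on no leaf or root array, and inflorescence did not overlap with the other organs. AT5TU080700 was at least 89.4-fold higher than in leaf (at least 184-fold without leaf replicate 2) and at least 195-fold higher than in root. AT5TU018610 was at least 65.3-fold higher than in leaf (at least 134-fold without leaf replicate 2) and at least 143-fold higher than in root.

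AT1TU057020, on chromosome 1, had signals of -0.91, -0.92 and -0.79 in inflorescence, -8.99, -6.23 and -9.47 in leaf, and -8.97, -8.92 and -9.51 in root. AT3TU068440, on chromosome 3, had signals of -1.32, -1.37 and -1.66 in inflorescence, -9.13, -6.27 and -9.70 in leaf, and -9.15, -9.58 and -9.83 in root. AT2TU027780, on chromosome 2, had signals of -2.47, -2.38 and -2.45 in inflorescence, -9.12, -6.32 and -9.60 in leaf, and -9.08, -9.52 and -9.67 in root. The replicates of inflorescence were close together in all 3 cases, and in each case the highest of the other 6 signals was that of leaf replicate 2. Over root, the bounds were at least 83.7-fold for AT1TU057020, 56.3-fold for AT3TU068440 and 28.4-fold for AT2TU027780. Over leaf they were at least 38.3-fold, 25.7-fold and 13.0-fold, and without leaf replicate 2 at least 78.8-fold, 53.0-fold and 26.7-fold.

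Of the remaining 4 among the 10 largest, AT1TU036960 (chromosome 1, start 10677328) was the only one of the 10 detected outside the inflorescence. Its signals were -1.99, -1.88 and -2.16 in inflorescence, -6.63, -6.39 and -9.70 in leaf with 1 of these 3 arrays well above background, and -8.67, -7.66 and -9.78 in root. Its mean was 47.3-fold higher in inflorescence than in leaf (71.3-fold without leaf replicate 2), a size that is not exact because most of its leaf signals were under detection, and at least 38.1-fold higher than in root. The other lincRNAs were AT4TU049190 (chromosome 4, start 14437099), AT5TU057910 on chromosome 5 and AT2TU004510 on chromosome 2, with inflorescence means of -3.31 ± 0.21, -2.07 ± 0.14 and -3.15 ± 0.16 (SD, n = 3). Over root they were at least 15.5-fold, 35.8-fold and 17.3-fold higher, and over leaf at least 7.09-fold, 16.8-fold and 7.90-fold higher. Without leaf replicate 2, the bounds over leaf became at least 14.6-fold, 34.5-fold and 16.3-fold. The sources used here do not give the build of the start positions.

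**Figure D2:**
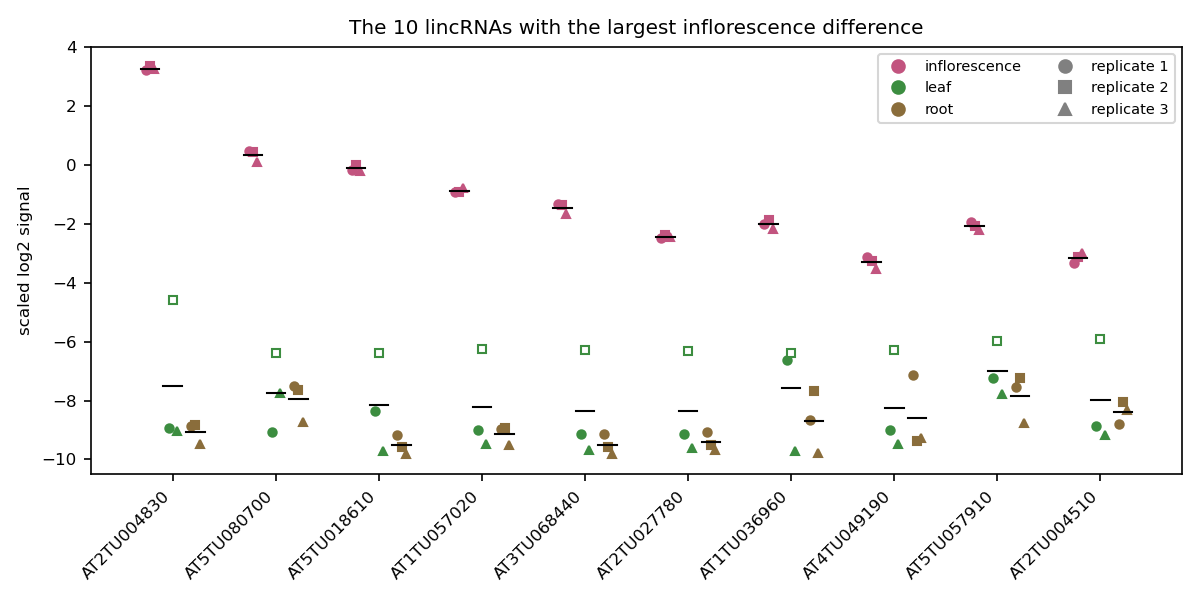
Scaled log2 signal (vertical axis) of the 10 lincRNAs with the largest difference between inflorescence and the higher of leaf and root, each array a point coloured by organ and shaped by replicate, with leaf replicate 2 drawn open and black bars for the mean of each organ. Inflorescence points lie close together and above all others, and the open leaf point is the highest of the 6 leaf and root points for AT2TU004830 at -4.58.

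The strongest inflorescence signals of the set were used to name further lincRNAs, without comparing their amounts, since their probes differ. These were the signals of AT2TU004830 (mean 3.28 ± 0.06, SD, n = 3), AT2TU056230 (1.20 ± 0.32), AT2TU032570 (0.67 ± 0.15), AT5TU080700 (0.35 ± 0.20) and AT4TU019690 (0.03 ± 0.09). AT2TU056230 (chromosome 2, start 16553372) gave 1.39, 1.38 and 0.84 in inflorescence, -1.62, -1.22 and -2.26 in leaf, and -1.89, -1.84 and -1.96 in root. Leaf and root overlapped in this lincRNA, and inflorescence was 7.50-fold above leaf and 8.57-fold above root. These sizes are those of the chosen probe, which differed by 2.86 on the authors' scale. Another probe of AT2TU056230, detected on all 3 inflorescence arrays, gave only 0.25, and the remaining one, detected on 1 of them, gave 1.49. AT4TU019690, on chromosome 4, gave -0.02, 0.13 and -0.02 in inflorescence, -4.23, -4.17 and -5.79 in leaf, and -4.70, -4.73 and -7.93 in root. It was well above background on 2 leaf arrays and 2 root arrays, and its inflorescence mean was 27.1-fold above that of leaf and 56.2-fold above that of root, sizes that are not exact because 1 array of each organ was under detection.

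By detection outside the inflorescence, the set fell into 3 classes. There were 36 lincRNAs well above background on none of the 6 leaf and root arrays, 47 on 1 to 5 of them and 9 on all 6. The median difference on the authors' scale was 3.57, 1.93 and 1.997 log2 units in these classes. The first of these medians is taken against leaf and root signals under detection and is no measured size, while the last is measured on both sides. The inflorescence means of the 36 ran from -6.65 to 3.28. At least 1 leaf array and 1 root array detected 47 lincRNAs, while 4 were detected in leaf and not in root and 5 in root and not in leaf. Single leaf arrays detected 50, 9 and 31 of the 92, and single root arrays 46, 48 and 30. The 9 of leaf replicate 2 and the lower counts of both replicate 3 arrays followed the lower share of all probes detected on these arrays.

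The 9 lincRNAs detected on all arrays give the differences that are measured on every side. They were AT2TU056230, AT2TU000580, AT5TU078360, AT4TU024160, AT2TU066050, AT1TU102500, AT5TU007450, AT4TU055470 and AT2TU032570, and their differences ran from 1.24 to 3.48 log2 units on the authors' scale. AT2TU000580, on chromosome 2, was 11.8-fold above leaf and 21.3-fold above root, with signals of -0.05, 0.07 and 0.00 in inflorescence, -3.46, -3.13 and -4.07 in leaf, and -4.24, -4.13 and -4.84 in root. AT5TU078360, on chromosome 5, was 6.11-fold above leaf and 6.26-fold above root, with signals of -1.32, -1.28 and -1.48 in inflorescence, -3.99, -3.79 and -4.12 in leaf, and -3.93, -3.98 and -4.10 in root. Leaf and root overlapped for AT5TU078360, and the lowest leaf signal of AT2TU000580 lay above its highest root signal. On the authors' scale, the other probes of AT5TU078360 gave 2.33 and 2.91. Those of AT2TU000580 gave 1.465 and -0.332, against 3.48 for the chosen probe, and neither was detected on all inflorescence arrays.

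Within the inflorescence, replicates of the members lay close together. The SD over the 3 arrays had a median of 0.20 log2 units, and 12 of the 92 had an SD above 0.5. The choice favours a small spread, because it asks for separation from every other array. The other 1168 lincRNAs detected on all inflorescence arrays had a median SD of 0.52. Their probe signals in inflorescence were also lower, with a median of -4.98 against -3.74 in the members. How far signal level and the choice each bear on the spread was not tested. The widest spread of a member was that of AT1TU080080, on chromosome 1, with -2.53 and -2.36 on slide 1 and -4.80 on slide 2. Replicate 3 was below the mean of replicates 1 and 2 by a median of 0.27 in the members (median difference -0.27) and by more in the other lincRNAs (-0.75), and 9 members lay more than 1 log2 unit below on slide 2.

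The members were spread over all 5 chromosomes, with 20, 20, 18, 16 and 18 on chromosomes 1 to 5. These were 6.29%, 8.20%, 7.89%, 8.65% and 6.32% of the lincRNAs detected in inflorescence on each chromosome. For 18 members, the probe names carry a start position, and the closest of these starts were 105397 bases apart.

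**Figure D3:**
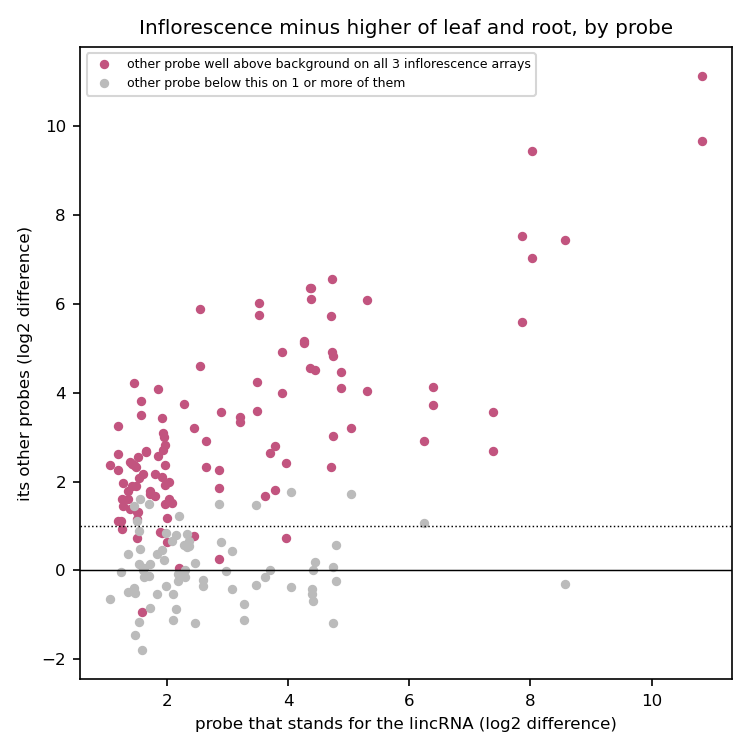
Inflorescence mean minus the higher of the leaf and root means (log2, authors' scale) for the 182 other probes of the 92 lincRNAs (vertical axis) against the same difference for the probe that stands for the lincRNA (horizontal axis). Of the 110 other probes well above background on all 3 inflorescence arrays (pink), 109 lie above 0 (solid line) and 100 at or above 1 (dotted line); the grey probes below that detection lie around 0.

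Most lincRNAs were covered by several probes, and the choice used only the brightest of them. The members had 182 other probes, and 144 of them (79.1%) were higher in inflorescence than in both leaf and root. Among lincRNAs detected on all 3 inflorescence arrays but outside the set, this held for 30.2% of the other probes. Those lincRNAs had not met the conditions with their brightest probe, so this contrast follows in part from the choice. On all 3 inflorescence arrays, 110 of the 182 (60.4%) were well above background, a condition that itself favours probes high in inflorescence. In 109 of these 110 (99.1%), inflorescence was above the higher of leaf and root, and in 100 (90.9%) by at least 1 log2 unit. Among the detected other probes of the same lincRNAs outside the set, 190 of 499 (38.1%) were higher in inflorescence and 56 (11.2%) by at least 1. Probes of 1 lincRNA were hybridised to the same RNA on the same arrays, so they repeat the reading of the transcript and not the biological sample.

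All other probes differed by at least 1 log2 unit in 43 members, at least 1 other probe did in 67, and none did in 25. The other probes of AT2TU004830 gave 9.67 and 11.14 on the authors' scale, close to the 10.84 of the probe that stands for it. Those of AT5TU080700 gave 7.04 and 9.44, and those of AT1TU057020 gave 5.58 and 7.54. Those of AT2TU004510 gave only 0.57 and -0.25, against 4.80 for the chosen probe, and neither was detected on all inflorescence arrays. For AT5TU018610, 1 probe gave 7.45 and the other, not detected on any inflorescence array, gave -0.31. In 9 members every other probe pointed the opposite way. The 5 largest of these by the scaled signals of the chosen probe, with values on the authors' scale, were AT3TU031020 (4.40 for the chosen probe, -0.42 and -0.53 for the others), AT1TU099240 (3.27, against -0.77 and -1.11), AT1TU079380 (2.98, against -0.02), AT2TU053590 (2.60, against -0.21 and -0.34) and AT3TU029220 (2.19, against -0.09 and -0.24). None of the opposing probes of these 5 was well above background on all inflorescence arrays, so each difference rests on 1 probe. For AT3TU051160 (1.59), chosen after its values were seen, 1 opposing probe was detected on all 3 inflorescence arrays and gave -0.93, and the other gave -1.80.

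Since replicates 1 and 2 and replicate 3 lay on separate slides, the conditions could be applied to slide 1 and the order of the organs read on slide 2. Slide 2 was not independent of the choice, because the probe of each lincRNA was picked by its mean over all arrays. The authors' signals were also close to quantile-normalised signals, which are computed over all arrays together. The same conditions applied to slide 1 alone chose 122 lincRNAs, 88 of them members. On slide 2, inflorescence was the highest of the 3 organs in 110 of the 122 (90.2%), by at least 1 log2 unit in 91. The median difference of the 122 on slide 2 was 1.71, with a range from -3.33 to 11.79. Of the other 2133 lincRNAs detected in inflorescence on slide 1, inflorescence was highest on slide 2 in 431 (20.2%), with a median difference of -0.57. These others are the lincRNAs that did not meet the conditions on slide 1, and not all lincRNAs detected there. Slide 2 held 1 array per organ, so these shares carry no test.

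**Figure D4:**
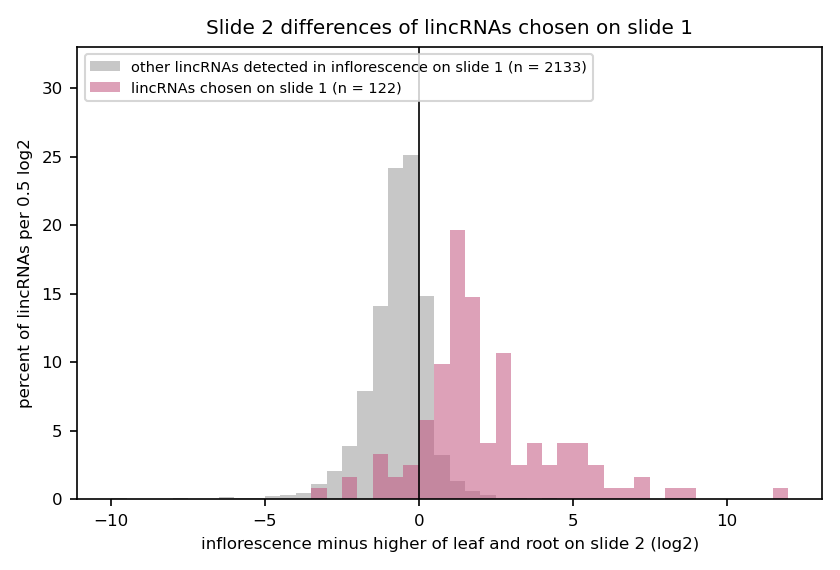
Histogram of inflorescence minus the higher of leaf and root on slide 2 (log2, horizontal axis), as the percent of lincRNAs per 0.5 log2 (vertical axis), for 122 lincRNAs chosen on slide 1 (pink) and 2133 others detected in inflorescence on slide 1 (grey). The chosen lincRNAs have a median of 1.71 and a tail to 11.79, and the others have a median of -0.57.

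The choice did not use the difference between leaf and root, which came from plants of the same age and culture. It did require both organs to lie below inflorescence, and so left out lincRNAs as high in leaf or root. This limits how far leaf and root can differ in the members, so the share of them called is shaped in part by the choice. The contrast of root and leaf was tested with limma over all 2116 genes detected on all arrays of at least 1 organ. A call needed a Benjamini-Hochberg adjusted p under 0.05 over all these genes and at least a 2-fold difference. All 92 members passed the detection filter through their inflorescence arrays, and 36 of them had no detected leaf or root signal to compare. Of the 92, 6 (6.52%) were called, 2 toward root and 4 toward leaf. Over all genes tested 23.9% were called, 13.7% higher in root and 10.2% higher in leaf, and among the 1260 lincRNAs detected in inflorescence 18.3% were called, 10.6% higher in root and 7.7% higher in leaf. The 36 members undetected on all leaf and root arrays had no measured difference to call. None of them was called by limma (2 had an unadjusted p under 0.05), so 6.52% is not a share of measured members. Of the 9 members detected on all leaf and root arrays, 3 were called. At an unadjusted p under 0.05 there were 15 members. The shares of all genes with such detection, or at this unadjusted p, are not given here. Neither count therefore shows whether members differed more or less often than other genes. The median root minus leaf difference was -0.43 in the members and 0.04 over all genes tested, and on the authors' scale it was 0.05 and 0.17. It was -0.07 in the 56 members detected on at least 1 leaf or root array, which held all 6 calls. In each of the 36 undetected members, leaf replicate 2 gave the highest leaf signal, so the -0.43 is no measured shift toward leaf.

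AT4TU029990, on chromosome 4, was the member with the largest called difference between leaf and root. Its signals were -4.37, -4.57 and -4.76 in leaf and -9.17, -9.05 and -9.82 in root, beside -3.02, -3.02 and -3.21 in inflorescence. Leaf and root did not overlap, 2 leaf arrays and no root array were well above background, and the fitted root minus leaf difference was -4.78 ± 0.24 log2 units (SE, n = 3 per organ, limma adjusted p = 3.36e-06). As a bound, leaf was at least 6.48-fold above root. It was lowest in root, since inflorescence was 2.79-fold above leaf and at least 18.1-fold above root. With normexp the difference was -1.20 and the call was lost (limma adjusted p = 0.0619). It was also lost, at a difference of 0, with a common floor, where signals under the highest detection limit of any array were raised to that limit. Of all 6 calls, only that of AT2TU032570 was kept with this floor.

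AT1TU102500 (chromosome 1, start 30418504) and AT4TU055470 on chromosome 4 were also higher in leaf than in root, and both were detected on all arrays. AT1TU102500 gave -3.75, -3.95 and -3.86 in leaf and -6.20, -5.27 and -5.73 in root, a difference of -1.88 ± 0.25 (limma adjusted p = 0.00078). AT4TU055470 gave -3.54, -3.54 and -3.90 in leaf and -4.75, -4.54 and -5.50 in root, a difference of -1.27 ± 0.27 (limma adjusted p = 0.00964). In both, every leaf array lay between the inflorescence arrays, with means of -2.41 and -2.35, and the root arrays. With the median of each array as the scale, both calls were lost, at -1.16 (limma adjusted p = 0.322) and -0.55 (limma adjusted p = 0.647), and that of AT4TU055470 was also lost with normexp (-0.92, limma adjusted p = 0.113) and without the detection filter (limma adjusted p = 0.0745). AT5TU033520, on chromosome 5, gave -6.19, -6.36 and -7.03 in leaf and -8.11, -6.95 and -8.39 in root, with leaf and root overlapping. Its difference of -1.29 ± 0.40 was near the threshold (limma adjusted p = 0.047), and the call was lost without any 1 of 7 of the 9 arrays, with adjusted p from 0.0656 to 0.148. On the authors' scale the difference was -0.27 (limma adjusted p = 0.811), and with quantile normalisation it was -0.21 (limma adjusted p = 0.863).

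AT2TU032570 and AT2TU002920, both on chromosome 2, were higher in root than in leaf. AT2TU032570 gave -2.07, -2.25 and -2.02 in leaf, -0.59, -0.43 and -0.59 in root and 0.79, 0.71 and 0.51 in inflorescence. The 3 organs did not overlap, and root was 2.99-fold above leaf (1.58 ± 0.16, limma adjusted p = 0.000149). AT2TU002920 gave -6.24, -6.23 and -6.63 in leaf and -4.91, -4.79 and -5.23 in root, a difference of 1.39 ± 0.20 (limma adjusted p = 0.00135), beside -3.58, -3.72 and -3.95 in inflorescence. With the mean of a lincRNA's probes in place of the brightest, neither was called, at 0.65 and 0.84 log2 units. On the authors' scale AT2TU002920 just missed the threshold (limma adjusted p = 0.0505). With a normexp background correction AT2TU002920 turned direction, to -0.44 (limma adjusted p = 0.42).

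With the 75th percentile over all probes, the calls of AT2TU032570, AT2TU002920, AT1TU102500, AT4TU055470 and AT5TU033520 were lost at differences of 1.69, 1.50, -1.77, -1.16 and -1.18, close to those above, with limma adjusted p from 0.0887 to 0.191. Without root replicate 3, AT4TU055470 fell short of 2-fold (-0.98). The count of 6 moved with the arrays used. It was 11 without leaf replicate 2, 15 without leaf replicate 3 and 12 on slide 1 alone, and with slide as a block it was 7. The shares of all genes called in these settings are not given here, so these counts cannot be set against them.

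**Figure D5:**
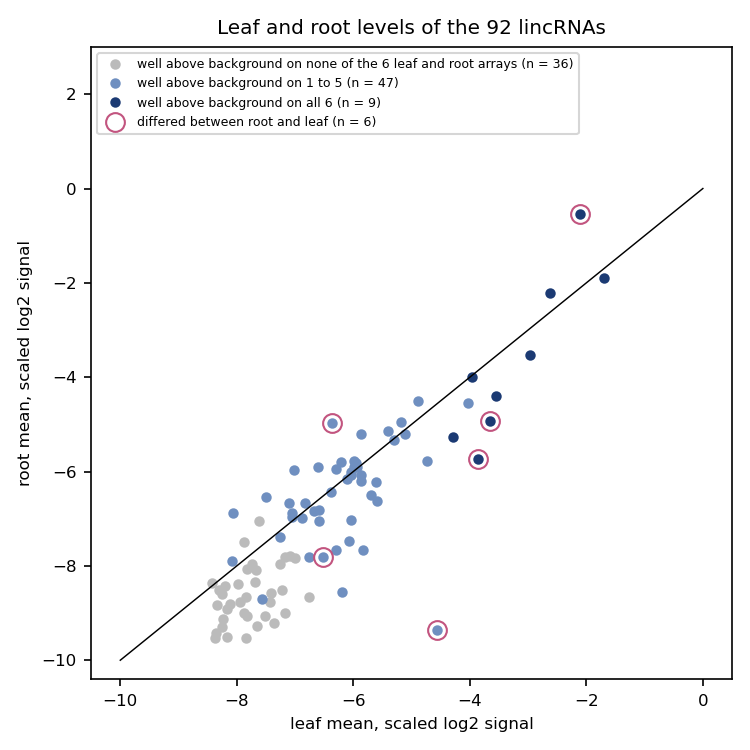
Root mean against leaf mean (scaled log2 signal) for the 92 lincRNAs, coloured by how many of the 6 leaf and root arrays detected them, with rings around the 6 that differed between root and leaf and a line of equal signal. The 36 undetected lincRNAs (grey) lie at the dim end, mostly under the line, and AT4TU029990 is the ringed point far below the line. In each of the 36, leaf replicate 2 gave the highest leaf signal and raises the leaf mean. Their place under the line is therefore no measured difference between leaf and root.

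The same conditions were applied to the other organs to place the set. Of 1260 lincRNAs detected on all inflorescence arrays, 7.30% met them for inflorescence, against 183 of 1392 (13.15%) for root and 79 of 448 (17.6%) for leaf. Without leaf replicate 2, 172 of 1460 (11.8%) met them for leaf, 184 for root and 97 for inflorescence. Differences of at least 4 log2 units made up 23.9% of the inflorescence set, 15.8% of the root set and 11.4% of the leaf set, and without leaf replicate 2 these shares were 23.7%, 15.8% and 5.81%. The largest difference among members detected on all 6 leaf and root arrays was 3.48. In the inflorescence set, differences of at least 4 therefore involve signals under detection and are no measured sizes. These shares were not tested against each other.

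Precursors of microRNAs known from flower development were measured on the same arrays and are not members. The 21 precursors listed belong to the miR159, miR160, miR164, miR167, miR172 and miR319 families, which act on transcription factor genes of the MYB, ARF, NAC, APETALA2-like and TCP families. They had 24 entries on the array, 20 of which were tested. MIR167A, MIR167B and MIR167D were each entered under both a locus code and a precursor name, so counts of entries are not counts of precursors. Against leaf, 2 entries were higher in inflorescence and 5 lower, where 8.55% of all genes tested were higher and 9.4% lower, and 7.63% and 24.6% of all microRNA precursors tested. Against root, 6 were higher and 0 lower by limma, where 10.8% of all genes tested were higher and 13.8% lower, and 19.5% and 21.2% of all microRNA precursors tested. At an unadjusted p under 0.05, 3 entries were lower than in root, among them MIR159B, whose difference was under 2-fold (-0.49 ± 0.14, limma adjusted p = 0.0359). The medians over the 20 were -0.42 against leaf and 0.30 against root, beside -0.20 and -0.26 over all genes tested.

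MIR319B was the precursor called higher in inflorescence than in both other organs. Its signals were -4.46, -4.62 and -4.21 in inflorescence, -6.41, -6.26 and -7.14 in leaf, and -6.00, -5.91 and -5.89 in root, and inflorescence overlapped with neither. The differences were 2.17 ± 0.25 from leaf (SE, limma adjusted p = 0.000572) and 1.50 ± 0.25 from root (limma adjusted p = 0.0029). MIR319A, MIR319B and MIR319C all met the conditions used for the lincRNAs, with 2.08, 1.59 and 1.50 on the authors' scale. MIR319A and MIR319C were called against neither organ. MIR160C was also higher than in leaf (1.05 ± 0.20, limma adjusted p = 0.0109), with 1 leaf spot left out as an outlier, and its difference from root was -0.48 (limma adjusted p = 0.103). MIR172B was higher than in root (limma adjusted p = 0.00058), where no array detected it, by at least 5.48-fold, and its difference from leaf was -1.18 (limma adjusted p = 0.129). Of the other miR172 precursors, none tested was called against root. MIR172A and MIR172D were detected on 0 inflorescence and 3 root arrays. Their differences from root were -2.34 (limma adjusted p = 0.0635) and -1.23 (limma adjusted p = 0.378). MIR172E differed from root by -0.13. MIR172C, detected on 0 inflorescence arrays and 1 root array, was not tested. The entries of MIR167B and MIR167D, and 1 of 2 of MIR167A, were lower than in leaf, by 3.82 and 4.20 log2 units for the entries of MIR167D (differences of -3.82 and -4.20), while those of MIR167B and MIR167D were higher than in root.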

How the data were processed

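Total RNA was DNase-treated, and 0.5 µg per sample was amplified and labelled with Cy3 for 1-colour Agilent arrays, per the labels' protocols. The scans were read by Agilent Feature Extraction 10.5.1.1, per the file headers. These deposited intensities are linear processed signals, background-subtracted and not normalised between arrays. The series table deposited by the authors holds log2 signals that correlated at 0.9994 to 0.9996 with quantile-normalised signals computed here. The sources used here do not give its method.

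Values were log2 processed signals minus the 75th percentile over 1345 probes (8.96%) well above background on all 9 arrays. Control spots, 71 outlier spots and 9 probes of promoter constructs were removed, and saturation touched 0 gene spots. Differences were tested by lmFit and eBayes of limma 3.58.1 (R 4.3.3) on 3 organ means over all arrays, tested on simulated data first. Errors of differences are standard errors. Normexp used median signals, offset 50, because the files hold no mean signal. Deviations from organ means correlated at 0.134 to 0.633 in all 9 same-numbered pairs of arrays and at -0.585 to -0.19 across slides. On slide 1, they correlated at 0.134 to 0.520 for same numbers and at 0.193 to 0.543 for different numbers. Same numbers thus ran no higher there. Replicate 3 was alone on slide 2, where slide and number cannot be told apart. The fit had no block, and the replicate block was an alternative.

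Members and lists were chosen with earlier results of these data known. Named members were the 10 largest by difference, the 5 brightest, those called between root and leaf, the 3 on each side of the limit, members within 10 kb of another (none) and up to 5 with only opposing probes; AT1TU080080, AT2TU000580, AT5TU078360 and the other members detected on all arrays were named after their values were seen. Of 405 locus codes, 400 matched the TAIR10.1 gene table, used for names alone. Ecotype labels differ by a running number and were not used.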

Additional observations from a re-analysis of the deposited data

How the results depend on the processing

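The count of 92 lincRNAs stayed between 80 and 94 with scanner signals under 4 scalings or with the mean of a lincRNA's probes, which shared 73 to 92 lincRNAs with the set. It was 94 to 131 when 1 replicate was left out, 52 with a limit of 2 log2 units, and 14 with normexp. For lincRNAs chosen on slide 1, inflorescence was highest on slide 2 in 54 of 57 with a limit of 2, and in 79 of 82 with scanner signals. The 6 calls between root and leaf became 2 with the 75th percentile over all probes, 3 with the median of each array, 10 with quantile normalisation, 2 with normexp, 3 among genes detected on all arrays, 1 with a common floor, 12 on slide 1 alone, and 4 to 15 when 1 replicate was left out. The common floor is set by the high detection limit of leaf replicate 2, which puts most members at the floor in both organs. With the replicate block 8 members were called, all 6 among them. AT2TU002920 reversed with normexp, at -0.441. The 13 calls among flower microRNA precursors became 7 with the 75th percentile over all probes, 2 with normexp and 10 to 17 when 1 replicate was left out. For the other changed counts, the cause was not tested. The bounds over leaf and the leaf-preferential count (79, or 172) without leaf replicate 2 were added after seeing the data. Where a probe was not well above background, its difference is limited by that background, which concerns all but 9 of the 92 in leaf or root.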

Other observations

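The same conditions were met by 62 genes of other classes on the array. They were 26 of 276 annotated non-coding loci detected in inflorescence (9.42%), 16 of 91 microRNA precursors (17.6%), 19 of 88 protein-coding genes (21.6%) and 1 of 5 loci without a match in the gene table. The protein-coding genes on this array are a small selection. MEE26 (AT2G34870), named for an embryo arrest phenotype, had the largest difference on the authors' scale (11.26), with scaled signals of 2.47, 2.58 and 2.57 in inflorescence. MEE26 was detected on no leaf or root array, and was at least 408-fold above leaf and at least 893-fold above root. The annotated non-coding loci AT4G04077, AT5G40348 and AT2G42835 followed with 11.14, 7.56 and 5.88. AT4G04077 and AT5G40348 were each detected on 1 leaf array and 2 root arrays. AT2G42835 was detected on none, and was at least 21.2-fold above leaf and at least 44.3-fold above root. The order of these genes is therefore no rank of measured size. AT4G04077 gave 4.71, 4.82 and 4.75 in inflorescence, -5.06, -5.89 and -6.84 in leaf and -5.64, -5.61 and -9.19 in root. The clock gene LHY differed by 5.69 and was detected on all arrays, at 45.9-fold above leaf and 124-fold above root. The sources used here do not give the harvest time of day. The precursor ath-MIR780 differed by 5.46, and its inflorescence signals were -2.80, -2.75 and -3.23. It was detected on no leaf or root array, and was at least 9.21-fold above leaf and at least 20.2-fold above root.

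Name numbers of lincRNAs rose with the start position in every case where a start was given, so lincRNAs with consecutive numbers are neighbours in the naming. Of 1138 such pairs on the array, 129 were detected in inflorescence on both sides, and 5 of these were pairs of members. They were AT1TU057020 with AT1TU057030, AT3TU029210 with AT3TU029220, AT4TU019690 with AT4TU019700, AT5TU007450 with AT5TU007460, and AT5TU047750 with AT5TU047760, named after their values were seen. Another 41 pairs held 1 member, and in 13 of these the partner was detected in inflorescence. In the first pair, AT1TU057030 gave -4.96, -5.91 and -7.13 in inflorescence, and both of its other probes pointed the opposite way (-0.52 and -1.45 on the authors' scale, neither detected on all inflorescence arrays). AT5TU007450 and AT5TU007460 were both above leaf and root, with differences of 1.39 and 2.03 on the authors' scale. How far apart the members of a pair lie was not measured, because 1 or both lack a start position.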
